A study of Mus musculus with 10 samples.

Results

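Peritoneum from Mr1-/- C57BL/6 male mice given 4.25% peritoneal dialysis (PD) fluid by intraperitoneal injection was compared with peritoneum from Mr1-/- males given the same volume of phosphate-buffered saline (PBS). Both groups were treated for 6 weeks before the tissue was taken and its polyadenylated RNA sequenced. The comparison rests on 4 of the 10 libraries of the study, 2 given PD fluid and 2 given PBS. The other 6 libraries are Mr1+/+ peritoneum under the same fluids, with 3 libraries each. Both Mr1-/- groups lack Mr1 and carry no other allele or agent in the labels, which do not say whether a library is 1 animal or a pool, how the Mr1 allele was made, or which cells the tissue held.

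MR1 is a class I-like molecule that presents vitamin B metabolites made by microbes to mucosal-associated invariant T (MAIT) cells, which depend on it to develop. In peritoneal dialysis a hypertonic glucose solution is held in the abdominal cavity, and the peritoneum acts as the exchange membrane. That membrane is a single layer of mesothelial cells over a basement membrane and a thin connective tissue with vessels, fat and macrophages. Long exposure to the fluid is known for loss of mesothelium, growth of vessels and thickening of the collagen-rich layer beneath.

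The Mr1 transcript checked the genotype labels. It stood at 2.46 and 1.97 CPM (read counts scaled for library size and composition to a common total) in the Mr1-/- PBS libraries and at 2.42 and 2.26 CPM in the Mr1-/- PD fluid libraries, from 29 to 39 counts in each. The Mr1+/+ libraries held 20.3 to 32.7 CPM, so all 4 Mr1-/- libraries lay below all 6 others. Within Mr1-/- the log2 fold change, PD fluid over PBS, was 0.08 ± 0.26 (SE), and its direction turned without PBS replicate 2 (-0.07).

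The libraries held between 14145635 and 16335799 counts. The Mr1-/- PD fluid libraries were nearly identical: their counts differed by a chi-square of 1.74 per gene, against 31.9 between the Mr1-/- PBS libraries. They were therefore summed and counted as 1 sample, so this comparison sets 1 PD fluid sample against 2 PBS samples and takes its spread from all 4 groups of the study. A second close pair, Mr1+/+ PBS replicates 1 and 2 (2.23 per gene), was treated likewise. Since the labels tie no library to an animal of its own, a p-value here speaks of the spread between these samples alone, which may be technical. In whole tissue, fewer cells of a type and less RNA per cell cannot be told apart.

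No gene of 15385 tested (0.00%) passed an adjusted p of 0.05 in edgeR's quasi-likelihood test with Benjamini-Hochberg adjustment. An unadjusted p under 0.05 was reached by 185 genes (1.20%) that were higher and 46 (0.299%) that were lower with PD fluid. DESeq2 on the same 8 samples called 3 genes, the fibulin Fbln1, the scavenger receptor Cd163 and the secreted lipid regulator Angptl8. Sizes are therefore described below by a rule with no test: a gene counts as set apart when its fitted fold change is at least 2 and both PD fluid libraries lie beyond both PBS libraries. By that rule 384 genes (2.50%) were higher and 293 (1.90%) lower. A stricter count, chosen after the data were seen, asks for a fold of 2 from each PBS library separately, and 192 genes (1.25%) were higher and 71 (0.461%) lower by it. Without overlap at any fold, 3234 genes (21.0%) were higher and 3165 (20.6%) lower. These shares over all genes are the background for the counts per list below. Over all genes tested the median log2 fold change was -0.01, with 46.7% above 0 and 52.9% below.

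Fbln1 encodes fibulin-1, a glycoprotein of basement membranes and elastic fibres (chr15:85205949-85286535, mm10). Its level was 42.8 and 33.4 CPM in the PBS libraries and 107 and 107 CPM in the PD fluid libraries. Both PD fluid libraries were thus far above both PBS libraries, which lay close together. The log2 fold change was 1.49 ± 0.20 (SE), a 2.82-fold difference, with an adjusted p of 0.433 in edgeR and 2.96e-06 in DESeq2. In edgeR with the close pairs kept as separate samples, the adjusted p was 0.0131.

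Cd163 is the haemoglobin-haptoglobin receptor of tissue macrophages (chr6:124304656-124330527). It stood at 26.0 and 19.9 CPM with PBS and at 74.1 and 76.1 CPM with PD fluid, again without overlap. Its log2 fold change was 1.71 ± 0.27 (SE), with an adjusted p of 0.931 in edgeR and 0.000143 in DESeq2. Angptl8 encodes a secreted protein of fat and liver that restrains lipoprotein lipase (chr9:21835510-21837347). It was singled out after its values were seen. Angptl8 was at 2.05 and 2.45 CPM with PBS and at 14.8 and 16.8 CPM with PD fluid, the largest proportional difference of the 3 genes. Its log2 fold change was 2.81 ± 0.36 (SE), a 7.02-fold difference, with an adjusted p of 0.433 in edgeR and 0.000129 in DESeq2. Every other gene had an adjusted p of 1 in edgeR.

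**Figure D1:**
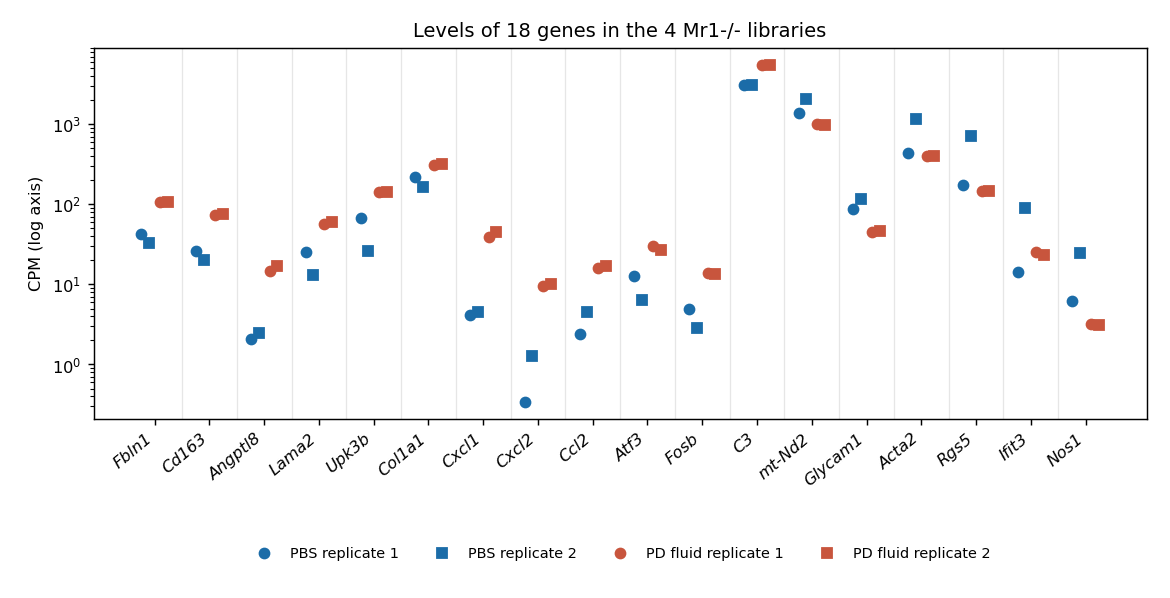
CPM on a log axis for 18 genes in each of the 4 Mr1-/- libraries, with PBS in blue and PD fluid in red, replicate 1 as circles and replicate 2 as squares. The PD fluid points of a gene nearly coincide, while PBS replicate 2 stands far above the other 3 libraries for Acta2, Rgs5, Ifit3 and Nos1.

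Matrix genes were mostly higher with PD fluid, with every matrix list median below 2-fold. Of 14 fibrillar and associated collagens, 13 had a log2 fold change above 0 and 12 had no overlap between groups, against 21.0% of all genes without overlap and higher. Their median log2 fold change was 0.58 and none was 2-fold apart. At an unadjusted p under 0.05 in edgeR 5 were higher (1.20% of all genes). Col1a1, a chain of type I collagen, was at 217 and 164 CPM with PBS and at 309.9 and 319 CPM with PD fluid. All of its PD fluid values lay above its PBS values, with a log2 fold change of 0.73 ± 0.28 (SE). Col3a1, the type III collagen chain, was at 461 and 251 CPM with PBS and at 701 and 704 CPM with PD fluid. Its PBS libraries were further apart than those of Col1a1, and the log2 fold change was 0.98 ± 0.47 (SE). Col14a1, a fibril-associated collagen, and Col6a1, of the beaded filament collagen VI, had log2 fold changes of 0.80 ± 0.29 and 0.69 ± 0.21 (SE).

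Among 22 matrix glycoproteins and proteoglycans, 20 were above 0 and the median was 0.42. By the 2-fold rule 6 were higher (2.50% of all genes). Besides Fbln1, these included Efemp1 (fibulin-3), at 76.3 and 29.4 CPM with PBS and 154 and 150.3 CPM with PD fluid. Efemp1 kept the PD fluid libraries above both PBS libraries, with a log2 fold change of 1.53 ± 0.52 (SE). Fbln2 (fibulin-2) and Mfap5, both of elastic microfibrils, were at 1.01 ± 0.35 and 1.17 ± 0.40 (SE) on the log2 scale. Fn1, fibronectin, was at 450 and 648 CPM with PBS against 805 and 816 CPM with PD fluid (0.56 ± 0.43). Postn, periostin, a matricellular protein of healing tissue, had a log2 fold change of 0.38 ± 0.58 (SE), smaller than its error.

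Enzymes that process collagen were less displaced. The list of 14 had a median log2 fold change of 0.31 with 12 above 0. By the 2-fold rule 2 were higher (2.50% of all genes). Those 2 were Loxl1, a lysyl oxidase-like enzyme of elastic fibres (33.2 and 16.2 against 52.7 and 55.1 CPM), and Adamts2, which trims procollagen ends (44.8 and 19.8 against 63.5 and 73.1 CPM). PBS replicate 1 lay nearer to the PD fluid libraries in both. Pcolce, an enhancer of procollagen cleavage, and Bmp1, the protease it assists, had log2 fold changes of 0.54 ± 0.29 and 0.62 ± 0.33 (SE). Aebp1, a collagen-binding secreted protein outside the lists and named after its values were seen, was at 173 and 127 CPM with PBS and 337 and 358 CPM with PD fluid.

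Of 16 basement membrane genes, 15 were above 0, with a median of 0.42. By the 2-fold rule 3 were higher (2.50% of all genes). Lama2, the laminin alpha 2 chain, was at 25.4 and 13 CPM with PBS and 57.7 and 59.7 CPM with PD fluid. Its libraries did not overlap and the log2 fold change was 1.62 ± 0.39 (SE). The collagen IV chains Col4a5 and Col4a6, which are encoded side by side, were at 1.33 ± 0.37 and 1.16 ± 0.41 (SE). Lamc3, a laminin gamma chain noticed afterwards, was at 9.92 and 3.40 CPM with PBS and 32.1 and 29.8 CPM with PD fluid. The list median depended on the PBS library used: 0.71 without replicate 1 and 0.30 without replicate 2.

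Of 18 matrix proteases and inhibitors, 17 were above 0 and the median was 0.62. By the 2-fold rule 3 were higher (2.50% of all genes). Plat, the tissue plasminogen activator, was at 25.3 and 17.3 CPM with PBS and at 46.7 and 45 CPM with PD fluid, without overlap. Its log2 fold change was 1.11 ± 0.25 (SE). Plau, urokinase, was nearer to its controls at 0.68 ± 0.27, as was Timp2, an inhibitor of metalloproteinases, at 0.58 ± 0.20 (SE). Mmp9, a gelatinase, was at 8.48 and 9.59 CPM with PBS and 16.4 and 20.2 CPM with PD fluid. The median of this list was 0.85 without PBS replicate 1 and 0.35 without PBS replicate 2.

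TGF-beta ligands, receptors and targets were close to their controls. Of 21 genes, 14 were above 0 with a median of 0.14, none was 2-fold apart and none reached an unadjusted p under 0.05 in edgeR. Tgfb1, the main fibrogenic ligand, was at 190.0 and 201 CPM with PBS and 227 and 227 CPM with PD fluid (0.22 ± 0.25). Ccn2, a connective tissue growth factor commonly used as a readout of the pathway, was at 19.6 and 23.3 CPM with PBS and 18.3 and 16.7 CPM with PD fluid (-0.29 ± 0.49). Neither difference exceeded its error. Ltbp4 and Ltbp3, which anchor latent TGF-beta in the matrix, were at 0.43 ± 0.23 and 0.34 ± 0.19 (SE).

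Markers of the cells that make this matrix were also higher. Of 17 fibroblast markers tested of 18 listed, 16 were above 0, with a median of 0.56. By the 2-fold rule 3 were higher (2.50% of all genes). Serpinf1, the anti-angiogenic factor PEDF, was at 28.3 and 15.7 CPM with PBS and 52.8 and 52.7 CPM with PD fluid. Its groups did not overlap and the log2 fold change was 1.27 ± 0.30 (SE). Pi16, a marker of adventitial fibroblasts, was at 11.2 and 4.62 CPM with PBS and 24.8 and 24.8 CPM with PD fluid. Dpt (dermatopontin, a small matrix protein) and Scara5 (a ferritin receptor of stromal progenitors) stood at 0.88 ± 0.31 and 0.84 ± 0.23 (SE). Without PD fluid replicate 1 the list median was 0.34.

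Mesothelial markers had a median of 0.97, with 19 of 20 above 0. Of these 20, 18 were higher without overlap (21.0% of all genes) and 9 were higher by the 2-fold rule (2.50%). Their summed level was 690 and 465 CPM in the PBS libraries and 1030.2 and 999 CPM in the PD fluid libraries. Upk3b, a uroplakin of mesothelial cells, was at 68.4 and 26.1 CPM with PBS and 143 and 141 CPM with PD fluid. PBS replicate 1 lay between replicate 2 and the PD fluid libraries, and the log2 fold change was 1.59 ± 0.97 (SE). Muc16, the large surface mucin CA125, showed 8.76 and 3.33 CPM with PBS and 20.3 and 19.0 CPM with PD fluid (1.70 ± 0.59). Slpi, a secreted inhibitor of leukocyte proteases, showed 12.3 and 7.41 against 34.3 and 36.6 CPM (1.85 ± 0.72). Both were 2-fold above each PBS library.

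Wt1, a transcription factor of the mesothelial lineage, stood at 19.5 and 5.37 CPM with PBS and 36.8 and 30 CPM with PD fluid (1.43 ± 0.80). Msln, mesothelin, was at 21.2 and 8.43 CPM with PBS and 30.4 and 25.0 CPM with PD fluid (0.91 ± 1.02), so its difference lay within its error. In each of these genes PBS replicate 2 was the lowest library. The list median was 1.70 without PBS replicate 1 and 0.48 without PBS replicate 2. Factors of mesenchymal transition, by which mesothelial cells can take on a fibroblast form, had a median of 0.10 over 13 genes, with 10 above 0. Foxc2 was 2-fold above each PBS library at low levels, 2.19 and 2.11 against 4.66 and 4.85 CPM.

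Macrophage genes were higher by smaller steps. Of 22 macrophage and monocyte receptors, 19 were above 0, with a median of 0.47. Without overlap 15 were higher (21.0% of all genes) and 2 lower (20.6%), and 2 were higher by the 2-fold rule (2.50%). Mrc1, the mannose receptor, was at 56.4 and 68.9 CPM with PBS and 116 and 119 CPM with PD fluid, a log2 fold change of 0.91 ± 0.30 (SE). C1qb, a chain of the complement starter C1q that macrophages make, was at 84.3 and 134 CPM with PBS and 170.4 and 174 CPM with PD fluid. Its PBS libraries were further apart, and its log2 fold change was 0.66 ± 0.30 (SE).

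Other macrophage genes were noticed only after the values were seen. F13a1, the coagulation factor XIII subunit of resident macrophages, was at 28.3 and 12.4 CPM with PBS and 74.9 and 72.0 CPM with PD fluid. Mgl2, a galactose-type lectin, was at 8.21 and 6.39 against 20.2 and 18.1 CPM. Cd5l, a secreted macrophage survival protein, was at 30.4 and 18.2 against 83.6 and 81.2 CPM, all 3 genes being 2-fold above each PBS library. Genes of large peritoneal macrophages, the resident cells of the cavity, were all above 0 (11 of 11). Their median was 0.56, and 0.35 without PBS replicate 1. The 0.56 is the value of Fn1, a member of this list described above with the matrix genes, so it is not separate from them. Their defining factor Gata6 was at 19.6 and 18.1 CPM with PBS and 23.0 and 26.5 CPM with PD fluid (0.39 ± 0.27).

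Complement and acute-phase genes had a median of 0.53, with 18 of 23 tested above 0 and 5 below. At an unadjusted p under 0.05 in edgeR 7 were higher (1.20% of all genes). By 2-fold from each PBS library 2 were higher (1.25%) and 1 lower (0.461%), the lower at a mean under 5 CPM. The log2 fold changes ran from -4.06 to 3.24. C3, the central complement protein, was the most abundant at 3131 and 3098 CPM with PBS and 5467 and 5567 CPM with PD fluid. The PBS libraries of C3 were nearly equal and both PD fluid libraries were above them by 1.77-fold (log2 fold change 0.83 ± 0.25, SE). Serping1, the C1 inhibitor, was at 271 and 264 CPM against 449 and 460.1 CPM (0.77 ± 0.19). C1ra and C1s1, the proteases of C1, were at 0.68 ± 0.18 and 0.56 ± 0.18 (SE). C7, a subunit of the membrane attack complex, was 2-fold above each PBS library, at 30 and 22.1 against 72.6 and 77.4 CPM, and was named after its values were seen.

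Lymphatic and blood endothelial lists differed in their medians. Of 9 lymphatic endothelial genes, 8 were above 0 with a median of 0.63. At an unadjusted p under 0.05 in edgeR 4 were higher (1.20% of all genes). Their summed level was 1126 and 1324 CPM with PBS and 1347 and 1360 CPM with PD fluid, little above PBS replicate 2. Reln, the secreted glycoprotein reelin of collecting lymphatics, was at 28.1 and 22.9 CPM with PBS and 64.3 and 60.0 CPM with PD fluid (1.29 ± 0.25). Mmrn1, multimerin-1, was at 30 and 19.4 against 63.1 and 60.3 CPM (1.33 ± 0.50). The VEGF-C receptor Flt4 and podoplanin, Pdpn, which mesothelial cells also make, were at 0.76 ± 0.23 and 0.92 ± 0.26 (SE). Blood endothelial and angiogenesis genes had a median of 0.03, with 12 of 23 above 0, and none was 2-fold apart. Kdr, the main VEGF receptor, was at 126 and 126 CPM with PBS and 169 and 178 CPM with PD fluid (0.46 ± 0.19). Its ligand Vegfa was at 102 and 78.3 against 100.3 and 95.3 CPM, and its direction turned without PBS replicate 2.

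Inflammatory cytokines and chemokines had a median of 0.18 (0.26 without PBS replicate 1 and 0.35 without PBS replicate 2), and held some of the largest single differences. Of 23 tested, 15 were above 0. By the 2-fold rule 5 were higher (2.50% of all genes), and 4 of these were 2-fold above each PBS library (1.25%). The 4 are chemokines: Cxcl1 and Cxcl2, which attract neutrophils, and Ccl2 and Ccl7, which attract monocytes. The 250 bases before the RefSeq transcription start of the neutrophil chemokines are shown because both hold a pair of matches to the kappaB motif (GGG, any 2 bases, then TTTCC), searched on both strands and printed in capitals (GRCm38.p6, plus strand, chr5:90890995-90891244 for Cxcl1 and chr5:90903649-90903898 for Cxcl2).
Cxcl1: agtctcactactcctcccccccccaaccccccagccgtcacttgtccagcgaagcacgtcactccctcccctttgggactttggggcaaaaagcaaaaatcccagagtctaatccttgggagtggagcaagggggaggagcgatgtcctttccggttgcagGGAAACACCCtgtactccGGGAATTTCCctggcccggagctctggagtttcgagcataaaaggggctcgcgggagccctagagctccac
Cxcl2: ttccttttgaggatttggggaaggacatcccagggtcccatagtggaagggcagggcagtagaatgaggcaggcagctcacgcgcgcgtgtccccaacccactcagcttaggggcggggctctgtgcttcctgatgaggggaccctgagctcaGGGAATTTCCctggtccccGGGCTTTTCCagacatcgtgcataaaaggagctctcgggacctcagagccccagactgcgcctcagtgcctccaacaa
The matches began 89 and 71 bases before the start in Cxcl1 and 97 and 78 bases before it in Cxcl2. Of 32851 promoter windows of this length, 464 (1.41%) held the motif. The sequences match letters only and say nothing of what was bound there. Of the 8 promoters searched, Il6 also held 1 kappaB match and 1 AP-1 match, while those of Ccl19, Atf3, Fosb, Nr4a2 and Ier3 held neither. The motifs TGANTCA (AP-1) and TGACGTCA (CRE) were in neither printed window, and in 6.75% and 1.55% of all windows. Promoters of Ccl2 and Ccl7 were not used here.

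Cxcl2 was at 0.34 and 1.29 CPM with PBS and 9.69 and 10.2 CPM with PD fluid, from 5 and 19 counts against 156 and 157. Its log2 fold change was 3.59 ± 1.04 (SE), the largest outside the pancreatic genes described below among genes past the 2-fold rule with a mean of at least 5 CPM. Cxcl1 was at 4.17 and 4.49 CPM with PBS and 39.3 and 44.7 CPM with PD fluid, with no overlap and a 9.69-fold difference. Its log2 fold change was 3.28 ± 1.51 (SE), and a fit of the 4 Mr1-/- libraries alone, which counts the near-identical PD fluid libraries as replicates, gave an adjusted p of 0.0318 in edgeR. In the Mr1+/+ PD fluid libraries, which share the estimate of spread, Cxcl1 was at 25.9, 2.56 and 2.54 CPM.

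Ccl2 was at 2.39 and 4.49 CPM with PBS and 16.1 and 17.1 CPM with PD fluid, a log2 fold change of 2.27 ± 0.57 (SE). Ccl7 followed at 1.44 and 2.52 against 7.02 and 7.83 CPM (1.91 ± 0.53). In both, the PD fluid libraries were several times above either PBS library. Il6 rested on 3 and 9 counts with PBS and 10 and 14 with PD fluid, so that no difference was detectable at this depth. Ccl19, a chemokine of lymphoid stroma, was lower with PD fluid, at 34.3 and 28.4 against 20.9 and 22.8 CPM (-0.52 ± 0.25).

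Immediate early genes, which cells switch on within minutes of a stimulus or of tissue handling, were mostly higher. Of 20, 16 were above 0, with a median of 0.32. Without overlap 14 were higher (21.0% of all genes), and 5 were higher at an unadjusted p under 0.05 in edgeR (1.20%). Fosb, an AP-1 subunit, was at 4.99 and 2.86 CPM with PBS and 14.1 and 13.3 CPM with PD fluid (1.81 ± 0.49). Atf3, a stress-induced factor, was at 12.8 and 6.33 against 30.4 and 26.9 CPM (1.59 ± 0.41), and both genes were 2-fold above each PBS library. Nr4a2 and Ier3 were at 0.84 ± 0.28 and 0.90 ± 0.32 (SE). The hour of tissue collection was not used here. Clock genes as a list had a median of -0.06, with 8 of 18 above 0, although the clock repressor Bhlhe40 was at 76.3 and 74.8 CPM with PBS and 143 and 139 CPM with PD fluid (0.91 ± 0.23). Its paralog Bhlhe41 was at 0.83 ± 0.40 (SE). Glucocorticoid response genes were near 0, with a median of 0.07 and 8 of 14 tested above 0.

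For most abundant genes set apart in either direction, PBS replicate 2 was the PBS library further from PD fluid. Of the 36 genes lower by the 2-fold rule with a mean of at least 5 CPM, 33 were higher in PBS replicate 2 than in replicate 1, compared with 45.2% of all genes, and 0 were 2-fold below each PBS library. Of the 132 genes higher by that rule at the same level, 17 were higher in PBS replicate 2 than in replicate 1, and 68 were 2-fold above each PBS library. Among the lower genes, those with the largest differences included Prph, a filament of peripheral neurons, at 2.87 and 21.2 CPM with PBS and 2.30 and 2.39 CPM with PD fluid. Nos1, the neuronal nitric oxide synthase, was at 6.29 and 25.0 against 3.23 and 3.11 CPM. Both had PBS replicate 2 far above the other 3 libraries, and so did Tnnt2, Syt1, Kcnmb1, Jph2, Dgkb, Smad9, Akap6 and Aldh1b1. Eps8l1, an actin-regulating protein of epithelia, was the exception among the 12 largest, with the higher PBS level in replicate 1 (39.5 and 20.7 against 10.6 and 9.77 CPM).

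Contractile and mural genes had the lowest median, -1.0, with 12 of 15 below 0. Their summed level was 2186 CPM in PBS replicate 1, 8261 CPM in PBS replicate 2 and 2380.5 and 2381 CPM in the PD fluid libraries. PBS replicate 2 therefore stood apart, and without it the median was 0.11. Acta2, the smooth muscle actin that also marks myofibroblasts, was at 434 and 1175 CPM with PBS and 398 and 408 CPM with PD fluid (-1.0 ± 0.55). Myh11, smooth muscle myosin, was at 457 and 2672 against 589.6 and 578 CPM, and its direction turned without PBS replicate 2. Rgs5, a pericyte gene, was at 173 and 714 against 149 and 146 CPM.

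Nerve and glial genes showed the same library. Their median was -0.64, with 10 of 13 below 0, and -0.01 without PBS replicate 2. Uchl1, a neuronal hydrolase, was at 1.92 and 16.5 CPM with PBS and 2.67 and 3.11 CPM with PD fluid. Its direction turned without that library.

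Interferon response genes also split the PBS pair. All 18 tested were below 0 in the fit, with a median of -0.35, but 0 of 18 lacked overlap. Ifit3, an antiviral effector, was at 14.4 and 89.0 CPM with PBS and 25.4 and 23.0 CPM with PD fluid. Isg15, a ubiquitin-like modifier, was at 5.34 and 30.2 against 10.1 and 10.9 CPM. PD fluid values lay between the PBS values in both, and the list median was -0.97 without PBS replicate 1 and 0.68 without PBS replicate 2. Heat shock and chaperone genes were alike, with a median of -0.38 and 0.19 without replicate 2. Hspa1a, the inducible HSP70, was at 3.22 and 14.2 CPM with PBS and 2.98 and 3.82 CPM with PD fluid.

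**Figure D2:**
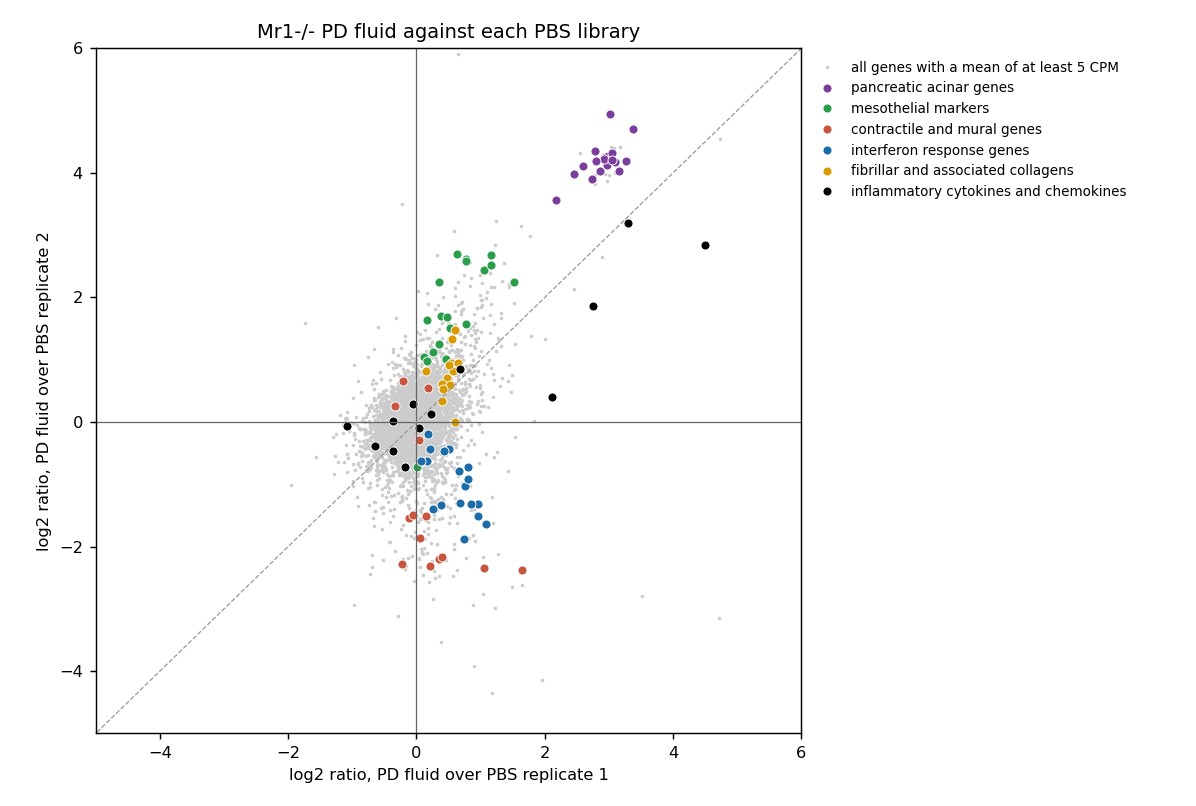
Log2 ratio of the mean PD fluid level to PBS replicate 1 (horizontal) and to PBS replicate 2 (vertical) for genes with a mean of at least 5 CPM, with 0.1 CPM added to each level. Pancreatic, most collagen and most mesothelial genes are above 0 on both axes, while contractile genes are near 0 or above on the horizontal axis and mostly below 0 on the vertical one, and interferon genes lie above 0 against replicate 1 and below 0 against replicate 2.

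Mitochondrially encoded transcripts were lower with PD fluid against both PBS libraries. All 11 tested were below 0 and 10 had no overlap, against 20.6% of all genes without overlap and lower, with a median of -0.65. Their sum was 25429 and 30746 CPM in the PBS libraries and 17541 and 17599 CPM in the PD fluid libraries. mt-Nd2, a subunit of respiratory complex I, was at 1386 and 2045 CPM with PBS and 997 and 981 CPM with PD fluid, and its log2 fold change was -0.79 ± 0.29 (SE). mt-Cytb, the cytochrome b of complex III, was at 3737 and 4190 against 2408 and 2458 CPM (-0.70 ± 0.36). The list median ranged from -0.77 to -0.61 over fits that left out 1 library.

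Fat and fuel genes showed little displacement. Adipocyte markers had a median of 0.05, with 12 of 19 tested above 0. Their summed level was 12998 and 8545 CPM with PBS and 11265 and 11311 CPM with PD fluid, inside the PBS range. Pnpla2, the first lipase of fat breakdown, was at 711 and 525 CPM with PBS and 866 and 886 CPM with PD fluid (0.50 ± 0.26). Pparg, the master factor of fat cells, was at 0.48 ± 0.47 (SE). By the 2-fold rule 0 adipocyte markers were higher (2.50% of all genes) and 1 was lower (1.90%), the lipid droplet protein Cidea. Its log2 fold change was -1.12, and -0.21 without PBS replicate 2.

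Lipid synthesis, fatty acid oxidation, and glucose transport and glycolysis genes had medians of -0.04, -0.03 and -0.01. Srebf1, a factor of lipid synthesis, was at 228 and 217 CPM with PBS and 289 and 303 CPM with PD fluid, a log2 fold change of 0.41 ± 0.17 (SE). Cpt1a, which admits fatty acids to mitochondria, was at 163 and 171 against 234 and 242 CPM (0.51 ± 0.21), and the hexokinase Hk2 at 68.1 and 69.0 against 105 and 99.8 CPM (0.58 ± 0.30). Each of these 3 had close PBS libraries and no overlap. Osmotic stress and water channel genes (median -0.06, 7 of 16 above 0) and antioxidant genes (median 0.03, 10 of 17 tested above 0) held no member that was 2-fold apart.

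Lymphocyte genes differed by small amounts. T and NK cell genes had a median of -0.15, with 20 of 24 tested below 0. Without overlap 13 were lower (20.6% of all genes) and 2 higher (21.0%). Cd8a, the cytotoxic T cell coreceptor, was at 206 and 189 CPM with PBS and 141 and 142 CPM with PD fluid (-0.48 ± 0.39). MAIT and innate-like T cell genes had the same median, -0.15, with 14 of 20 tested below 0. Il18rap, a subunit of the interleukin-18 receptor, was at 22.0 and 14.2 against 13.1 and 14.2 CPM, and Maf, a factor of several T cell lineages, at 91.2 and 118 against 131 and 124 CPM. No gene of either list was 2-fold apart.

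B and plasma cell genes were marginally higher, with a median of 0.13 and 13 of 16 tested above 0. Jchain, which joins secreted antibodies, was at 375 and 337 CPM with PBS and 566 and 572 CPM with PD fluid (0.68 ± 0.24). Dendritic cell and MHC class II genes also had a median of 0.13, with 11 of 16 above 0. Neutrophil and mast cell genes had a median of 0.48, with 9 of 15 tested above 0. That median ranged from 0.27 to 0.48 over fits that left out 1 library. Mcpt4, a mast cell protease, was 2-fold above each PBS library at low levels, 0.82 and 0.75 against 2.11 and 2.46 CPM (1.53 ± 0.61). The mast cell receptor Kit, which pacemaker cells of gut muscle also carry, was at 58.2 and 85.2 CPM with PBS and 45.9 and 40.1 CPM with PD fluid (-0.73 ± 0.27).

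Cell cycle genes were all below 0 (25 of 25), with a median of -0.22. Of these, 12 were lower without overlap, against 20.6% of all genes. Mki67, the proliferation antigen, was at 73.1 and 108 CPM with PBS and 60.7 and 60.0 CPM with PD fluid (-0.59 ± 0.52). The difference depended on the control: the list median was -0.38 without PBS replicate 1 and -0.03 without PBS replicate 2.

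Genes of other tissues were also read in these libraries. All 19 pancreatic acinar genes, which encode digestive enzymes, were 2-fold above each PBS library, against 1.25% of all genes. Genes of the exocrine pancreas made up 11 of the 12 largest rises. The summed level of the 19 acinar genes was 920 and 381 CPM in the PBS libraries. It was 7050.2 and 7219 CPM in the PD fluid libraries. Cela2a, an elastase, was at 95.3 and 37.7 CPM with PBS and 980.3 and 999 CPM with PD fluid, with a log2 fold change of 3.90 ± 2.67 (SE). Pnlip, pancreatic lipase, was at 130.1 and 57.3 against 934 and 953 CPM. In the Mr1+/+ libraries the same sum ran from 204 to 35251 CPM, so it varied widely under either fluid. For replicates 1 to 3 it was 702, 658 and 35251 CPM with PBS and 204, 4549 and 5470 CPM with PD fluid. Several of these families have near-identical copies, between which counts are uncertain. Their part in the results above was not tested.

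Erythroid genes were higher, all 5 tested above 0 with a median of 1.58. The globin Hba-a1 was at 5.54 and 7.35 CPM with PBS and 16.6 and 22.1 CPM with PD fluid. Liver genes had a median of 0.32 with 13 of 15 tested above 0, but 0.69 without PBS replicate 1 and 0.02 without PBS replicate 2. Albumin (Alb) was at 105 and 64.4 against 105 and 109 CPM. Intestinal epithelial genes summed to 24.9 to 30.7 CPM in all 4 libraries, with 8 of 13 above 0 and a median of 0.38 that ranged from 0 to 0.84 over fits that left out 1 library. Skeletal muscle genes had a median of -0.16, with 12 of 16 tested below 0 and a summed level of 105 to 133 CPM. The parts of blood, liver and muscle in the results above were not tested.

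**Figure D3:**
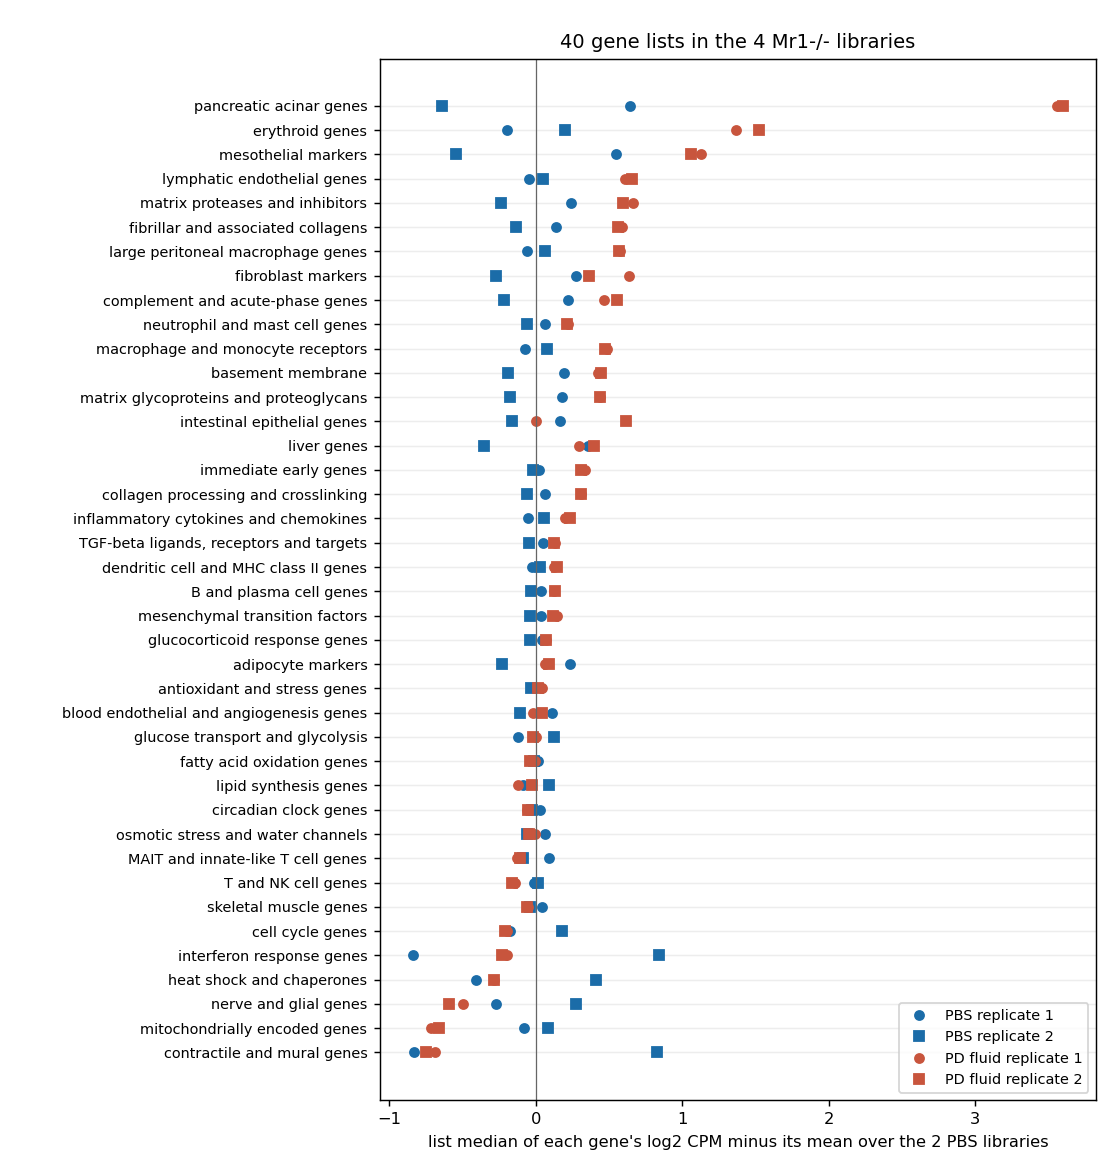
For each of 40 gene lists, the median over its genes of log2 CPM minus the gene's mean over the PBS libraries, in each Mr1-/- library (PBS blue, PD fluid red, replicate 1 circles, replicate 2 squares). PD fluid points are right of both PBS points for collagens, macrophage and lymphatic genes and left of both for mitochondrially encoded genes, while the PBS points themselves are far apart for contractile, interferon and acinar genes.

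The effect of PD fluid was set beside that in Mr1+/+ peritoneum, with which it shares no library. No gene passed an adjusted p of 0.05 for the difference between the effects (0 of 15385, 0.00%), where the smallest adjusted p in edgeR was 0.266, and 2037 genes (13.2%) had an unadjusted p under 0.05. DESeq2 called 472 differences. Across all genes tested the fold changes in the 2 genotypes had a Pearson correlation of -0.07, a description over genes that are not independent replicates.

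The Mr1+/+ log2 fold change was 1.54 ± 0.16 (SE) for Fbln1 and 1.69 ± 0.22 for Cd163, against 1.49 and 1.71 in Mr1-/-. The differences, Mr1-/- minus Mr1+/+, were -0.05 ± 0.26 and 0.02 ± 0.34 (SE). Angptl8 was at 1.91 ± 0.30 in Mr1+/+ and its difference was 0.91 ± 0.46 (SE). All 3 passed in Mr1+/+, with an adjusted p of 0.0124 in edgeR. An effect that passed in only 1 genotype is not thereby shown to differ between them.

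Matrix lists had smaller medians in Mr1-/- than in Mr1+/+: 0.58 against 1.32 for collagens, 0.42 against 1.44 for matrix glycoproteins and 0.31 against 1.14 for collagen processing. Of the 14 collagens, 13 had a difference below 0 and 4 of these reached an unadjusted p under 0.05 in edgeR. Fibroblast markers stood at 0.56 against 1.48. Mesothelial markers were at 0.97 against 0.80, an order that turned without Mr1-/- PBS replicate 2 (0.48). Lymphatic genes were at 0.63 against 0.48.

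Blood endothelial genes were at 0.03 in Mr1-/- and 1.04 in Mr1+/+, with 22 of 23 differences below 0 and 11 of these at an unadjusted p under 0.05. Adipocyte markers were at 0.05 against 1.58, with all 19 differences below 0 and 14 at an unadjusted p under 0.05. Summed adipocyte levels were 6256 to 8366 CPM in Mr1+/+ PBS and 19003 to 25763 CPM in Mr1+/+ PD fluid, while the Mr1-/- PBS libraries already held 12998 and 8545 CPM. Mitochondrially encoded genes were at -0.65 against 0.55, and 11 of 11 differences were below 0. Their sums with PD fluid were alike, 17541 and 17599 CPM in Mr1-/- and 17257 to 18308 CPM in Mr1+/+. With PBS they were 25429 and 30746 CPM in Mr1-/- and 8041 to 16346 CPM in Mr1+/+. The genotypes thus differed in their PBS levels, and the cause was not tested.

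B and plasma cell, T and NK cell, and cell cycle medians were nearer to 0 in Mr1-/-. B and plasma cell genes stood at 0.13 against -0.89, with 14 of 16 differences above 0 and 9 at an unadjusted p under 0.05. T and NK cell genes stood at -0.15 against -0.64, and cell cycle genes at -0.22 against -0.99. Immediate early genes were at 0.32 against -0.27, and Fosb had a difference of 2.22 ± 0.62 (SE). Pancreatic acinar genes were at 3.44 against -2.42, with the sums given above. Mr1+/+ PBS replicate 3 held 35251 CPM of them, far above the 702 and 658 CPM of PBS replicates 1 and 2. The part of the acinar genes in these differences was not tested.

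**Figure D4:**
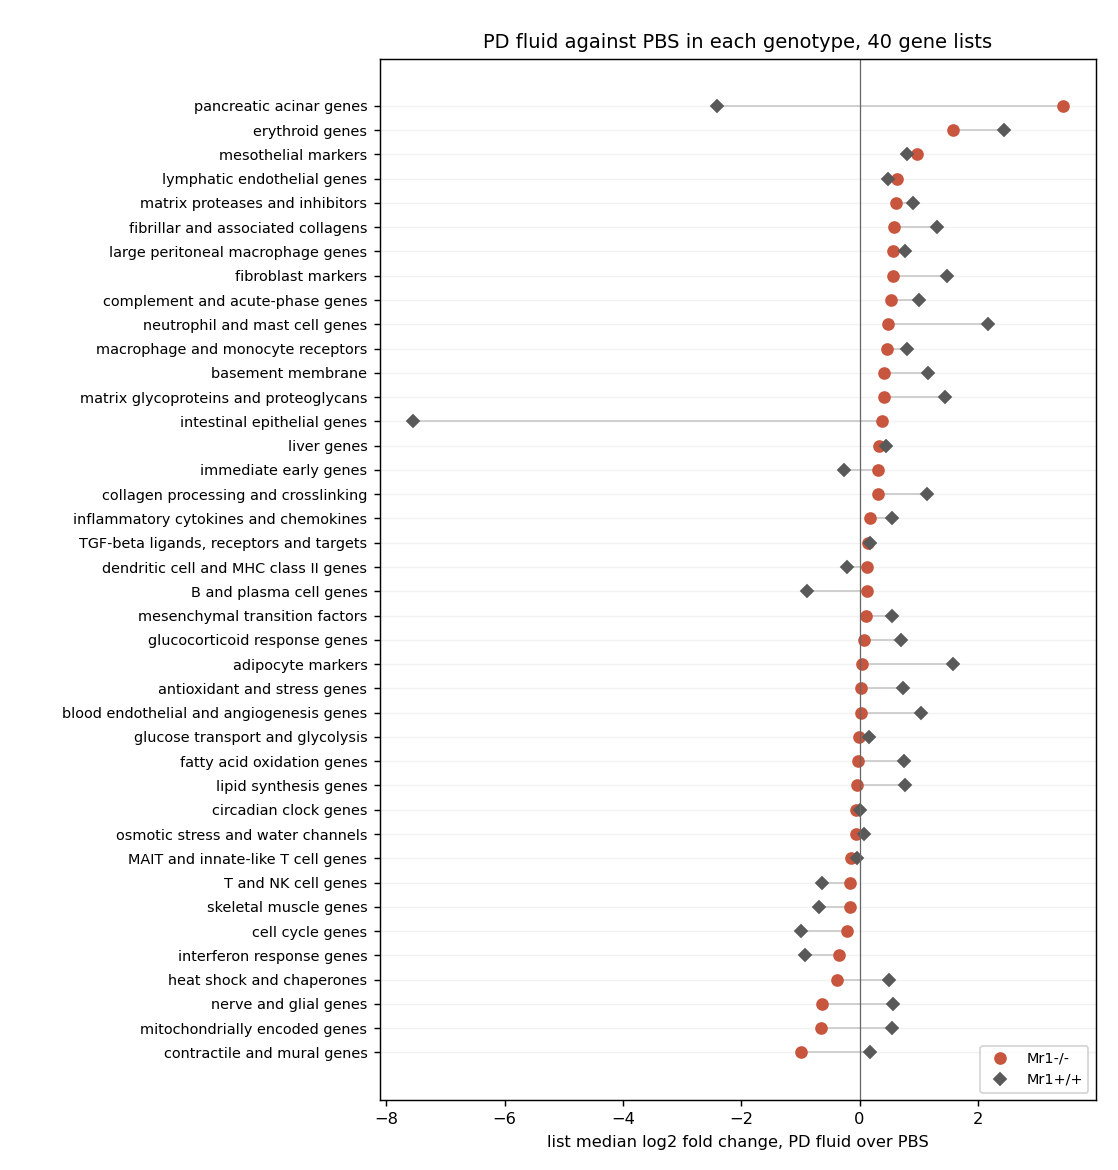
Median log2 fold change, PD fluid over PBS, of 40 gene lists in Mr1-/- (red circles) and Mr1+/+ (grey diamonds) peritoneum. The genotypes lie close for mesothelial, lymphatic and TGF-beta genes. Mr1-/- lies nearer to 0 for collagens, fibroblast, adipocyte, endothelial and cell cycle genes. The medians have opposite signs for mitochondrially encoded and acinar genes. The acinar median of Mr1+/+ includes PBS replicate 3, which stood far above the other Mr1+/+ libraries for these genes.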

How the data were processed

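Polyadenylated RNA of peritoneum was sequenced, and the authors deposited a table of whole-number read counts per gene symbol (21899 entries, 10 libraries). The genome build was mm10, per the submitters' processing notes; aligner, counter and strand setting: not given in the sources used here. Repeated symbols were summed to 21877. Close library pairs were found by a chi-square per gene and summed, leaving 8 samples and 4 residual degrees of freedom. edgeR 4.0.16 (R 4.3.3) was run with TMM scaling, filterByExpr by group, a robust quasi-likelihood fit of 4 group means and Benjamini-Hochberg adjustment over 15385 genes, called at an adjusted p under 0.05. DESeq2 1.42.0 was an alternative. CPM are TMM-scaled, and list medians per library used log2(CPM + 0.1). The fitting script was tested on simulated data that gave every gene the same spread, unlike these data. That test therefore does not show how well changes were recovered here. At 14145635 counts or more per library, the number of samples limits precision more than counting error does.

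Named genes were Mr1, a set of fixed genes and up to 4 members of each list with the smallest p. The 12 largest differences in each direction were also named, among genes past the 2-fold rule with a mean of at least 5 CPM. Genes named after their values were seen are Angptl8, Glycam1, Pi16, F13a1, Cd5l, Mgl2, Lamc3, Aebp1, C7, Myh11, Cxcl1, Slc15a2 and Rnd1. The members and all 40 lists were chosen with earlier results of these data known. Gene positions are from GENCODE M21, which held 98.4% of the tested symbols, and promoters from RefSeq GRCm38.p6, which held 8 of 10 genes looked up. Comparisons under other settings are given in the closing section.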

Additional observations from a re-analysis of the deposited data

Results flagged for a closer look

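In 12 of the 116 genes and 2 of the 40 lists followed across settings, the genotypes moved in opposite directions without overlap. Every Mr1-/- library with PD fluid lay on one side of its PBS libraries. Every Mr1+/+ library with PD fluid lay on the other side of its own. The 116 genes were picked, and the share over all genes was not counted, so the 12 cannot be set against a background. Within Mr1-/- alone, 21.0% of all genes were higher and 20.6% lower without overlap. None of the differences passed an adjusted p of 0.05 in edgeR, and the smallest was 0.266, shared by Glycam1, Smad7 and Gpx3. Differences are given on the log2 scale as Mr1-/- minus Mr1+/+, after the fold changes of the 2 genotypes. Glycam1, a mucin of lymph node venules, had fold changes of -1.15 and 1.08 and a difference of -2.23. Slc15a2, a peptide transporter, had 1.62 and -0.58 and a difference of 2.19, with 1 Mr1-/- PBS library at 0.61 CPM and the other at 27.5 CPM.

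Among contractile and TGF-beta genes, the difference was -1.86 for Acta2, -1.84 for the actin-nucleating Lmod1, -1.87 for Ccn2 and 1.44 for Smad7, an inhibitor of TGF-beta signalling. Among metabolic and stress genes it was -3.21 for the lipid droplet protein Cidea, 0.98 for Cpt1a, -1.34 for mt-Nd2, -1.32 for mt-Cytb, -1.54 for the secreted peroxidase Gpx3 and -1.13 for the chaperone Hsp90aa1. Without PBS replicate 2 the Mr1-/- fold changes of Acta2, Lmod1, Cidea and Hsp90aa1 were -0.11, -0.05, -0.21 and -0.12. The list median of the differences was 0.98 for B and plasma cell genes and -1.35 for nerve and glial genes. Without PBS replicate 2 the Mr1-/- medians of these lists were 0.098 and -0.0062.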

How the results depend on the processing

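The comparison is limited by 1 PD fluid sample and by PBS libraries that differ from each other. Against 0 genes, 10 separate libraries gave 2 (Fbln1 and Angptl8), the 4 Mr1-/- libraries alone 1 (Cxcl1), DESeq2 3, and fits leaving out 1 library 0 to 1; the 1 gene was Slc15a2 without Mr1-/- PBS replicate 1 (log2 fold change 6.12, adjusted p 0.00269 in edgeR). For the difference between genotypes, against 0, 10 separate libraries gave 1490, DESeq2 472 and fits leaving out 1 library 0 to 1. The replicate numbers did not pair the libraries (correlation of deviations 0.02); with the replicate block on 10 libraries 0 genes were called within Mr1-/- and 1915 for the difference. Separate libraries, the 4-library fit and the block treat near-identical libraries as replicates. The 384 higher and 293 lower genes became 582 and 504 with no filter on low counts, 785 and 623 at a fold of 1.5, and 192 and 71 at 2-fold from each PBS library, an alternative chosen after seeing the data; the 4 Mr1-/- libraries alone gave 146 lower. Leaving out 1 library gave 334 to 786 higher and 268 to 898 lower.

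List medians kept within their spread under every planned setting other than leaving out a library. Leaving out 1 library, they ranged from 0.30 to 0.71 for basement membrane, 0.35 to 0.85 for matrix proteases, 0.48 to 1.70 for mesothelial, 0.34 to 0.64 for fibroblast, -0.20 to 0.37 for adipocyte, -0.067 to 0.11 for clock, -0.38 to -0.027 for cell cycle, -1.54 to 0.11 for contractile, -0.97 to 0.68 for interferon and -0.75 to -0.0062 for nerve genes. Without Mr1-/- PBS replicate 2 the direction turned for 10 named genes, whose log2 fold changes over these fits ran from -0.067 to 0.25 for Mr1, -1.85 to 0.051 for Myl9, -2.19 to 0.36 for Myh11, -2.51 to 0.59 for Uchl1, -0.051 to 0.33 for Vegfa, -1.87 to 0.76 for Ifit3, -1.52 to 0.98 for Isg15, -1.33 to 0.40 for Rsad2, -1.39 to 0.27 for Usp18 and -2.06 to 0.080 for Hspa1a. The cause was not tested. Counts at this depth leave genes such as Il6, with 3 to 14 counts a library, without a detectable difference.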

Other observations

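Some genes outside the lists were noticed for their levels. Rnd1, a small GTPase that loosens the actin skeleton, was at 6.64 and 8.37 CPM with PBS and 36.5 and 37.6 CPM with PD fluid in Mr1-/-, a log2 fold change of 2.31 ± 1.05 (SE). Glycam1 was at 86.5 and 117 CPM with PBS and 44.6 and 47.2 CPM with PD fluid in Mr1-/-, without overlap. In Mr1+/+ it was at 37.6 to 41.0 CPM with PBS and 76.2 to 97.7 CPM with PD fluid, also without overlap and in the other direction. Slc15a2 was at 27.5 and 0.61 CPM with PBS and 46.2 and 39.7 CPM with PD fluid in Mr1-/-.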
